A study of Mus musculus with 32 samples.

Results

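Pax2, Pax8, Lhx1, Sox4, Sox11, Sox9, Cd24a and Prom1 are 8 genes known from nephron development and tubule repair. They were taken by name from a table of read counts for 53700 genes in 32 mouse kidneys, and all 8 were among the 13961 genes with enough reads to be tested. The kidneys came from male C57BL/6 mice of the iKspCre-Pkd1del line, in which Pkd1 is floxed and a tamoxifen-inducible Cre is driven by the promoter of kidney-specific cadherin, a gene of tubule epithelium. The 8 Wildtype mice belonged to this line but were not given tamoxifen, and their age is given as 109 days. The 12 PKD mice received tamoxifen at 150 mg/kg at a young age, which deletes Pkd1 in the tubules, and were taken at 95 days. The 12 PKD + Salsalate mice were treated in the same way and had 2.5 g of salsalate, a salicylate drug that activates AMPK, per kg of chow over the last 2 weeks. Each mouse gave 1 bulk kidney library. Deletion, tamoxifen and age all differ between the wildtype and the cystic mice and cannot be told apart as sources of a difference between them.

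PAX2 and PAX8 are paired-box transcription factors that specify the renal epithelial lineage, and LHX1 is a LIM homeobox factor of the early nephron. SOX4 and SOX11 are closely related SOX factors active in developing nephrons, and SOX9 marks growing ureteric tips as well as tubule cells that repair an injury. CD24 and CD133, encoded by Cd24a and Prom1, are surface proteins used to isolate progenitor-like tubule cells. In the adult kidney several of these genes stay on in part of the tubule, and cyst epithelium of polycystic kidneys is known for a dedifferentiated state. In bulk tissue, fewer cells of a type and less RNA per cell cannot be told apart.

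The kidneys held between 11193136 and 109807664 counted reads. The count for Pkd1 covers the whole gene, including the part outside the floxed exons, so it does not check the deletion. Levels are given as CPM, the count of a gene scaled to a fixed number of reads per library, after TMM normalization (trimmed mean of M-values). Pkd1 stood at 68.7 ± 10.9 CPM (SD, 8 mice) in wildtype and at 92.1 ± 15.1 CPM (SD, 12 mice) in PKD kidneys. The wildtype libraries fell into 2 sets by their names, 5 ending in R and 3 without it. No PKD or PKD + Salsalate library had a name ending in R, so only the 3 share the naming of the cystic libraries. The labels do not say what the R stands for. Between 13.2% and 15.7% of the alignments lay on no annotated feature in the 5 libraries and between 7.60% and 9.77% in the other 3. The summed level of 8 proximal tubule markers was 8703 to 11821 CPM in the 5 libraries, 14267 to 16323 CPM in the other 3 and 9195 to 12251 CPM in PKD kidneys. For the 8 genes, results against wildtype are therefore given against each set as well. The PKD kidney labelled replicate 10 had 4612 CPM of 8 liver transcripts in sum, where no other PKD kidney passed 140.2 CPM. With it left out, the same number of the 8 genes, 6, passed the test between PKD and wildtype. Fibroblast and smooth muscle markers summed to 374 to 563 CPM in wildtype and 858 to 1393 CPM in PKD kidneys, with 7 of 8 markers higher in PKD. Macrophage markers rose in the same way, with 6 of 6 higher and sums of 134 to 204 CPM in wildtype and 295 to 462 CPM in PKD kidneys. None of these markers was at 0, and their part in the differences of the 8 genes from wildtype was not tested. Over the cystic kidneys, relations among the 8 are given with and without the marker sums.

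In wildtype kidneys 6 of the 8 genes were well expressed, and Sox9 and Sox11 were close to the detection limit. On a scale of CPM per kilobase of exon, which allows levels of different genes to be compared, the wildtype level was highest for Cd24a, at 53.0 ± 11.4 (SD, 8 mice). Sox4 followed at 14.5 ± 5.09, Lhx1 at 10.3 ± 1.96 and Pax8 at 9.89 ± 2.02 CPM per kilobase, and the ranges of these neighbours overlapped. Pax2 stood at 6.95 ± 1.85 and Prom1 at 4.67 ± 1.04 CPM per kilobase, again with overlapping ranges. Sox9, at 0.201 ± 0.0526, and Sox11, at 0.113 ± 0.0416 CPM per kilobase, lay below all others. In PKD kidneys the order changed for Prom1, which at 9.90 ± 1.84 CPM per kilobase overlapped Pax8 at 10.2 ± 0.949, and for Lhx1, which at 6.34 ± 1.32 came after Pax2 at 8.68 ± 1.09. Cd24a, at 51.2 ± 5.60, and Sox4, at 20.9 ± 6.57 CPM per kilobase, stayed first and second in PKD, and their ranges did not overlap there. The order depends on the length used. Per kilobase of the longest transcript in wildtype, Pax8, at 19.2, came before Sox4, at 14.5, and Lhx1, at 10.9, while Pax2 at 9.49 and Prom1 at 8.83 CPM per kilobase kept their places after Lhx1. All 8 genes had reads in every wildtype kidney, with at least 7 for Sox9 and 8 for Sox11, so none rose from absence. In PKD kidneys Sox9, at 1.11 ± 0.343, and Sox11, at 0.345 ± 0.0963 CPM per kilobase, stayed below the other 6. Both had enough reads to be tested only through the cystic kidneys, so these levels do not test the name of re-expressed developmental genes.

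Between PKD and wildtype kidneys, Sox9, Sox11, Prom1, Sox4 and Pax2 rose, Lhx1 fell, and Pax8 and Cd24a did not pass the test. Of all genes tested, 24.1% were called higher and 25.0% lower at an adjusted p under 0.05 in edgeR's quasi-likelihood test, so a call as such is common in this comparison. Every PKD kidney lay above every wildtype kidney for 3 of the 8 genes, Sox9, Sox11 and Prom1, and for 5.21% of all genes tested. Because Sox9 and Sox11 passed the filter on low values only through the cystic kidneys, their calls and lack of overlap are no independent support. The log2 fold change against wildtype had a median of -0.01 over all genes.

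**Figure D1:**
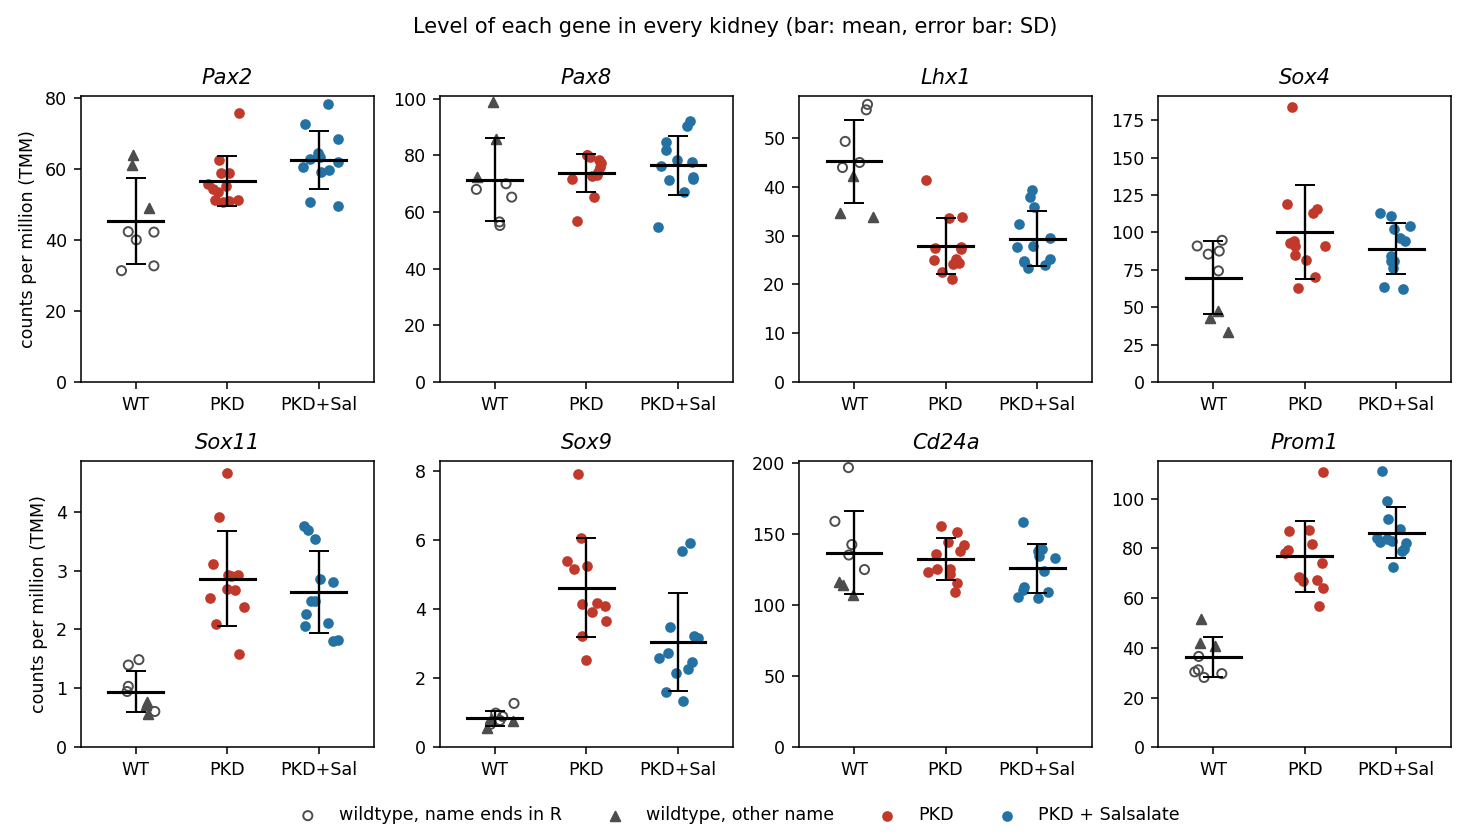
Level of each of the 8 genes in every kidney, in CPM, by group (WT, wildtype, 8 mice; PKD, 12; PKD + Salsalate, 12). Points are kidneys, lines are means and error bars are SD. Open circles are the 5 wildtype libraries with a final R in the name and triangles the other 3. All cystic kidneys lie above all wildtype kidneys for Sox9, Sox11 and Prom1, and the wildtype sets lie apart for Sox4 and Pax2.

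The paired-box genes changed little. Pax2, at chr19:44735057-44826703 of GRCm39, ranged from 31.3 to 63.9 CPM with a median of 42.2 in wildtype kidneys and from 50.5 to 75.8 CPM with a median of 54.8 in PKD kidneys. All 12 PKD kidneys lay above the wildtype median, but 11 of them stayed within the wildtype range. Pax2 had a log2 fold change of 0.31 (SE 0.11, adjusted p = 0.0155). Against the 5 wildtype libraries with a final R in the name the log2 fold change was 0.58 (adjusted p = 7.88e-06), with -0.05 against the other 3 (adjusted p = 0.752), so that the rise in Pax2 was found against 1 set of wildtype libraries and not against the other. The wildtype mean of Pax2 was 37.7 CPM in the first set and 58.0 CPM in the second.

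Pax8, at chr2:24309418-24365617, had 71.4 ± 14.6 CPM in wildtype (SD, 8 mice) and 73.7 ± 6.86 CPM in PKD kidneys (SD, 12 mice). Its log2 fold change of 0.04 had a 95% interval of -0.14 to 0.23 (adjusted p = 0.715). Pax8 also parted by wildtype set, with log2 fold changes of 0.23 (adjusted p = 0.0312) and -0.22 (adjusted p = 0.106) against the 5 and the 3 libraries.

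Lhx1 was the only one of the 8 genes called lower. The gene lies at chr11:84408803-84416368 on the minus strand, and its wildtype levels were 33.8 CPM at the lowest, 44.5 at the median and 56.9 at the highest. In PKD kidneys they were 21.2, 26.2 and 41.4 CPM. Of the 12 PKD kidneys 11 lay below every wildtype kidney, and the exception, replicate 4 at 41.4 CPM, had the largest share of alignments on no feature of all 32 libraries, 16.4%. For Lhx1 the log2 fold change was -0.71 (SE 0.12, adjusted p = 1.1e-05), or 1.63-fold lower. Lhx1 was lower in PKD against both wildtype sets, by -0.86 in log2 against the 5 libraries (adjusted p = 1.05e-06) and by -0.43 against the 3 (adjusted p = 0.0315). Lhx1os, a non-coding gene on the opposite strand that shares 1661 bases of exon with Lhx1, fell as well, from 18.5 ± 2.90 to 13.4 ± 3.60 CPM, with a log2 fold change of -0.47 (adjusted p = 0.00245). The counting was by strand, which separates the pair.

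**Figure D2:**
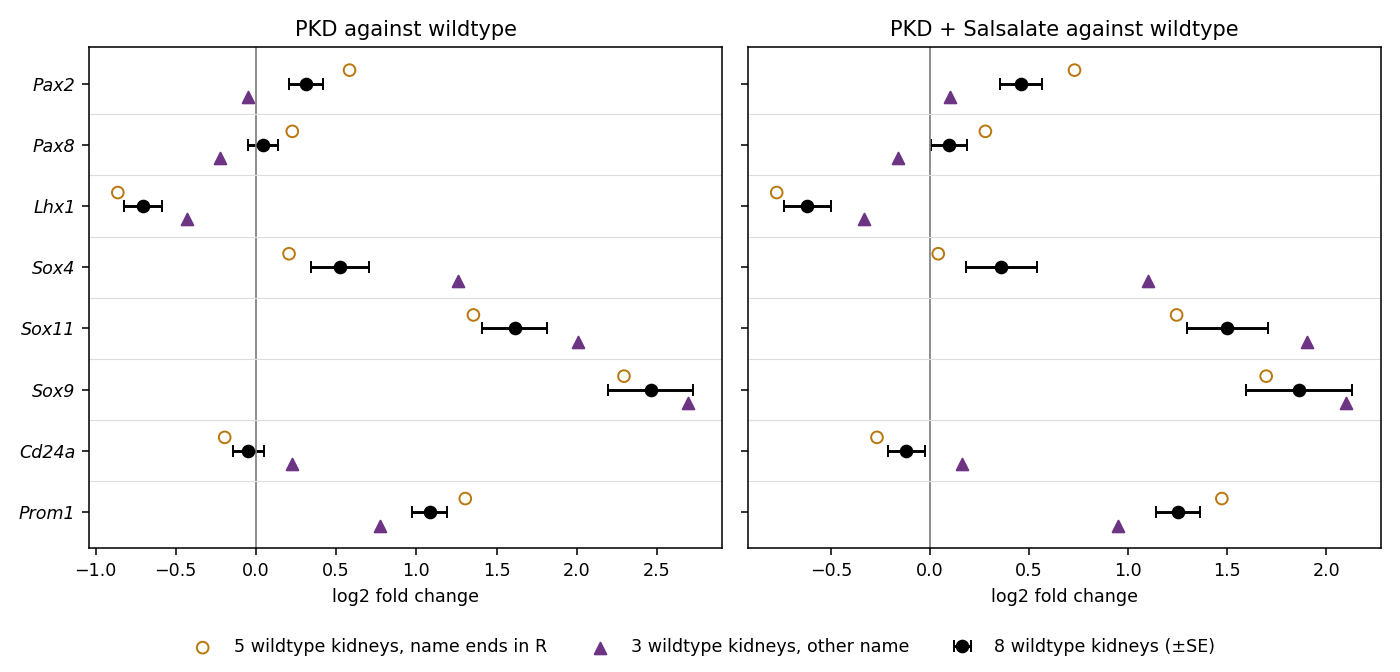
Log2 fold change of each gene in PKD (left) and PKD + Salsalate kidneys (right) against wildtype. Black points and bars give the estimate ± SE with all 8 wildtype kidneys, open circles the estimate against the 5 wildtype libraries with a final R in the name and triangles against the other 3. The estimates for Sox9, Sox11 and Prom1 stay above 0 and those for Lhx1 below 0 with either set, and those for Pax2, Pax8 and Cd24a fall on both sides of 0 in PKD.

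Among the 8, Sox9 and Sox11 had the largest fold changes, and Sox4 a smaller one. Sox9, at chr11:112673009-112678586, was counted with 7 to 21 reads per wildtype kidney, which is 0.545 CPM at the lowest, 0.800 at the median and 1.27 at the highest. In PKD kidneys it was 2.52, 4.15 and 7.91 CPM. Sox9 passed the filter on low values through the cystic kidneys alone, and every PKD kidney lay above every wildtype kidney. Sox9 thus had a log2 fold change of 2.46 (SE 0.27, adjusted p = 3.54e-09), a 5.51-fold rise, and of 2.29 and 2.69 against the 5 and the 3 wildtype libraries.

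Sox11, at chr12:27384263-27392573, was likewise near the detection limit in wildtype, with 8 to 22 reads per kidney. Its levels were 0.571, 0.859 and 1.49 CPM (lowest, median and highest) in wildtype and 1.58, 2.80 and 4.65 CPM in PKD kidneys, without overlap, and it too passed the filter only through the cystic kidneys. For Sox11 the log2 fold change was 1.61 (SE 0.20, adjusted p = 8.07e-08), a 3.06-fold rise, with 1.36 and 2.01 against the 5 and the 3 wildtype libraries. The lowest PKD kidney for both Sox9 and Sox11 was replicate 10, the one with liver transcripts, and without it the log2 fold changes were 2.51 for Sox9 and 1.66 for Sox11.

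Sox4, at chr13:29132902-29137696, was expressed in all kidneys. Its wildtype levels ran from 33.7 to 94.7 CPM with a median of 79.8, and its PKD levels from 62.7 to 183.9 CPM with a median of 92.1. The ranges overlapped, and 4 of 12 PKD kidneys lay above all wildtype kidneys. Sox4 had a log2 fold change of 0.53 (SE 0.18, adjusted p = 0.016). Sox4 differed more between the wildtype sets than between the groups: 74.3 to 94.7 CPM in the 5 libraries and 33.7 to 47.5 CPM in the other 3, without overlap. Against the 5 libraries the log2 fold change of Sox4 was 0.21 (adjusted p = 0.294) and against the 3 it was 1.26 (adjusted p = 7.19e-05). The highest Sox4 level was again that of PKD replicate 4, and without it the log2 fold change was 0.41 (adjusted p = 0.0353).

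The stretch of 250 bases before the RefSeq start is shown for the pair of SOX genes that varied most closely together from kidney to kidney, Sox4 and Sox11, and for Lhx1, the gene that fell. RefSeq promoters were found for 6 of the 8 genes, Pax2, Pax8, Sox4, Sox11, Lhx1 and Prom1, at 9 starts. The stretches are chr13:29137683-29137932 for Sox4, chr12:27392718-27392967 for Sox11 and chr11:84416361-84416610 for Lhx1, all on the minus strand of GRCm39, written 5′ to 3′. Capitals mark the CCAAT box (CCAAT or its reverse complement ATTGG), the GC box (GGGCGG or CCGCCC), the TATA box (TATAAA or TTTATA) and the SOX motif (ACAAAG or CTTTGT).
Sox4: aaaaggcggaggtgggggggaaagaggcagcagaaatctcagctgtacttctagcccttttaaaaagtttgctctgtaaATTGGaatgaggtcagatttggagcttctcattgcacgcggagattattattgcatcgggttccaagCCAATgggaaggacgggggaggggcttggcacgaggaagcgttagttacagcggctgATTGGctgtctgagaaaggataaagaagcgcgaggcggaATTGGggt
Sox11: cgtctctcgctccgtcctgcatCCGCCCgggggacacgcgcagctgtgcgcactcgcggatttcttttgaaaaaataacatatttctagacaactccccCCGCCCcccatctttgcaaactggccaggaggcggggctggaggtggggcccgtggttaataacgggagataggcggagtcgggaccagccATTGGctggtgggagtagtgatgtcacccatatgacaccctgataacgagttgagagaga
Lhx1: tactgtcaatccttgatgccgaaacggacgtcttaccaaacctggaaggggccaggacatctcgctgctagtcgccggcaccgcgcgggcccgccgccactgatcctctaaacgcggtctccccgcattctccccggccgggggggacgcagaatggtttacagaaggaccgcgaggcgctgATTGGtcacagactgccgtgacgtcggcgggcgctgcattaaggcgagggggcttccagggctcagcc
The Sox4 stretch held 4 CCAAT boxes, the Sox11 stretch 1 CCAAT box and 2 GC boxes and the Lhx1 stretch 1 CCAAT box. A CCAAT box in either orientation is held by 33.85% and a GC box by 32.7% of all 32851 promoters of the same length. None of the 3 stretches held the letters of the TATA box, which are in 12.4% of all promoters, or those of the SOX motif, which are in 16.5%. A match describes the letters in this window and shows no binding.

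Of the surface proteins, Prom1 rose and Cd24a did not pass the test. Prom1, at chr5:44150962-44259395, had 28.1 CPM at the lowest, 33.9 at the median and 51.5 at the highest in wildtype kidneys, and 56.7, 76.0 and 110.6 CPM in PKD kidneys. All PKD kidneys lay above all wildtype kidneys. The log2 fold change of Prom1 was 1.08 (SE 0.11, adjusted p = 1.12e-09), a 2.12-fold rise, and it was 1.30 against the 5 and 0.78 against the 3 wildtype libraries (adjusted p = 1.19e-10 and 5.11e-05).

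Cd24a, at chr10:43454280-43460264, was at 106.9, 130.0 and 196.5 CPM (lowest, median and highest) in wildtype and at 108.8, 130.7 and 155.6 CPM in PKD kidneys. The medians nearly coincided and the wildtype range was the wider. Its log2 fold change of -0.05 had a 95% interval of -0.24 to 0.15 (adjusted p = 0.704). Against the wildtype sets it was -0.19 (adjusted p = 0.0863) and 0.23 (adjusted p = 0.0911). The Cd24a value is uncertain in a further way: a copy on chromosome 14 matches 83.3% of its longest transcript at up to 97.3% identity, and alignments with more than 1 place in the genome were not counted on genes. No such copy was found for the other 7 genes.

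Salsalate gave a call for 0 of the 8 genes against untreated PKD by the same quasi-likelihood test of edgeR, in which 0.580% of all genes were called. At an unadjusted p under 0.05 there was 1, Sox9, against 10.3% of all genes tested, so this count is near the background. DESeq2's Wald test called 0 of the 8 (1.43% of all genes) and limma-voom 1, again Sox9 (1.05% of all genes). In PKD + Salsalate kidneys Sox9 was at 1.33 CPM at the lowest, 2.66 at the median and 5.90 at the highest. Of these 12 kidneys 10 lay below the PKD median of 4.15 CPM and 5 below the whole PKD range. The log2 fold change of Sox9 was -0.60 (SE 0.19, 95% interval -0.99 to -0.20, p = 0.00414, adjusted p = 0.164). The adjusted p of Sox9 was 0.0402 in limma-voom, 0.0306 without PKD + Salsalate replicate 11 and 0.294 without PKD replicate 12, so its call depended on the method and on single kidneys. Replicate 11 had the lowest proximal tubule marker sum of all kidneys, 8282 CPM, and the highest fibroblast marker sum, 1745 CPM.

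Prom1 went the other way, with 72.4, 83.3 and 111.0 CPM (lowest, median and highest) in PKD + Salsalate kidneys. Of these 11 of 12 lay above the PKD median, with a log2 fold change of 0.17 (95% interval -0.02 to 0.36, adjusted p = 0.583). For Pax2 the log2 fold change was 0.15 (95% interval -0.05 to 0.34), for Pax8 0.05 (-0.11 to 0.22) and for Lhx1 0.08 (-0.14 to 0.31). Sox4 had -0.17 (95% interval -0.49 to 0.16), Sox11 -0.11 (-0.43 to 0.21) and Cd24a -0.07 (-0.25 to 0.10).

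Against wildtype, the salsalate-treated kidneys gave calls for 5 of the 8 genes. The comparison uses the same wildtype libraries as the one of PKD with wildtype. Of all genes tested, 21.8% were called higher and 23.2% lower here. Every PKD + Salsalate kidney lay above every wildtype kidney for 4.46% of them, and for Sox9, Sox11 and Prom1. Sox9 and Sox11 passed the filter on low values only through the cystic kidneys, so their calls and lack of overlap are no independent support. Log2 fold changes were 1.86 for Sox9 (adjusted p = 1.05e-06), 1.50 for Sox11 (adjusted p = 4.11e-07), 1.25 for Prom1 (adjusted p = 1.1e-10), 0.46 for Pax2 (adjusted p = 0.000805) and -0.62 for Lhx1 (adjusted p = 8.01e-05). Sox4, with a log2 fold change of 0.36, did not pass here (adjusted p = 0.101), nor did Pax8 with 0.10 (adjusted p = 0.405) and Cd24a with -0.12 (adjusted p = 0.303). limma-voom called Sox4 as well, with 0.43 (adjusted p = 0.0487).

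The wildtype sets changed these calls. Against the 5 libraries with a final R, 7 of the 8 genes were called, beside 8082 of all 13923 genes tested in that fit. Pax8, with 0.28 (adjusted p = 0.00913), and Cd24a, with -0.27 (adjusted p = 0.0192), gained a call there, and Sox4, with 0.04 (adjusted p = 0.852), had none. Against the other 3 libraries 4844 of all 13883 genes tested were called. Of the 8 genes 4 were called there, among them Sox4 with 1.10 (adjusted p = 0.000401). Lhx1 with -0.34 (adjusted p = 0.103), Pax2 with 0.10 (adjusted p = 0.511), Pax8 with -0.16 (adjusted p = 0.261) and Cd24a with 0.16 (adjusted p = 0.259) were not. Sox9, Sox11 and Prom1 were called against both sets, Sox9 with 1.70 against the 5 libraries and a larger value against the 3, Sox11 with 1.24 and 1.90, and Prom1 with 1.47 and 0.95. For Pax2 and Lhx1 the log2 fold changes against the 5 libraries were 0.73 and -0.78, both called.

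The 8 genes did not vary as 1 group from kidney to kidney. Over the 24 cystic kidneys, with log2 CPM centred on the PKD or the PKD + Salsalate mean, Pearson r over the 28 pairs ran from -0.78 to 0.83 with a median of 0.02. By a permutation test within groups 9 pairs had an adjusted p under 0.05, 4 of them positive. The share of such pairs among all tested genes was not counted, so the number is not read as particular to the 8. The points share a library and its scaling, so the values describe what varied together.

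The SOX genes varied with one another and against Pax8. Sox4 and Sox11 had the closest relation, with r = 0.83 (permutation p = 2e-05, adjusted p = 0.000187), Spearman rho = 0.85 (p = 2e-05), r = 0.83 without the 2 kidneys farthest from the median, and r = 0.84 in either group alone. Sox9 had r = 0.74 with Sox11 (permutation p = 4e-05, adjusted p = 0.00028, rho = 0.71, p = 0.00018, r = 0.68 without 2 kidneys), with 0.64 in PKD and 0.85 in PKD + Salsalate kidneys. Sox9 with Sox4 gave r = 0.70 (permutation p = 7e-05, adjusted p = 0.000327, rho = 0.74, p = 7e-05, r = 0.78 without 2 kidneys), with 0.55 in PKD and 0.93 in PKD + Salsalate kidneys. In PKD kidneys alone the pairs with Sox9 did not pass (adjusted p = 0.196 with Sox4 and 0.107 with Sox11).

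Pax8 had r = -0.78 with Sox11 (permutation p = 2e-05, adjusted p = 0.000187, rho = -0.79, p = 4e-05, r = -0.74 without 2 kidneys) and -0.83 and -0.76 within PKD and PKD + Salsalate. With Sox4 it had r = -0.76 (permutation p = 2e-05, adjusted p = 0.000187, rho = -0.77, p = 6e-05, r = -0.69 without 2 kidneys) and -0.83 and -0.77 within the groups. With Sox9 it had r = -0.74 (permutation p = 0.00014, adjusted p = 0.00049, rho = -0.76, p = 9e-05, r = -0.69 without 2 kidneys), with -0.48 in PKD and -0.87 in PKD + Salsalate kidneys. In PKD kidneys alone Pax8 with Sox9 did not pass (adjusted p = 0.316).

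A second set of relations joined the surface proteins and Lhx1. Cd24a and Prom1 had r = 0.69 (permutation p = 7e-05, adjusted p = 0.000327, rho = 0.61, p = 0.00181, r = 0.55 without 2 kidneys), with 0.76 in PKD and 0.68 in PKD + Salsalate kidneys. Lhx1 had r = -0.74 with Cd24a (permutation p = 9e-05, adjusted p = 0.00036, rho = -0.77, p = 0.0001, r = -0.79 without 2 kidneys) and -0.66 and -0.82 within the groups. With Prom1 it had r = -0.60 (permutation p = 0.00217, adjusted p = 0.00675, rho = -0.63, p = 0.00085, r = -0.63 without 2 kidneys), with -0.74 in PKD and -0.41 in PKD + Salsalate kidneys. Of the 9 pairs, 5 passed in PKD kidneys alone and 8 in PKD + Salsalate kidneys alone. Pax2 had no relation past the threshold with any of the other 7 genes.

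**Figure D3:**
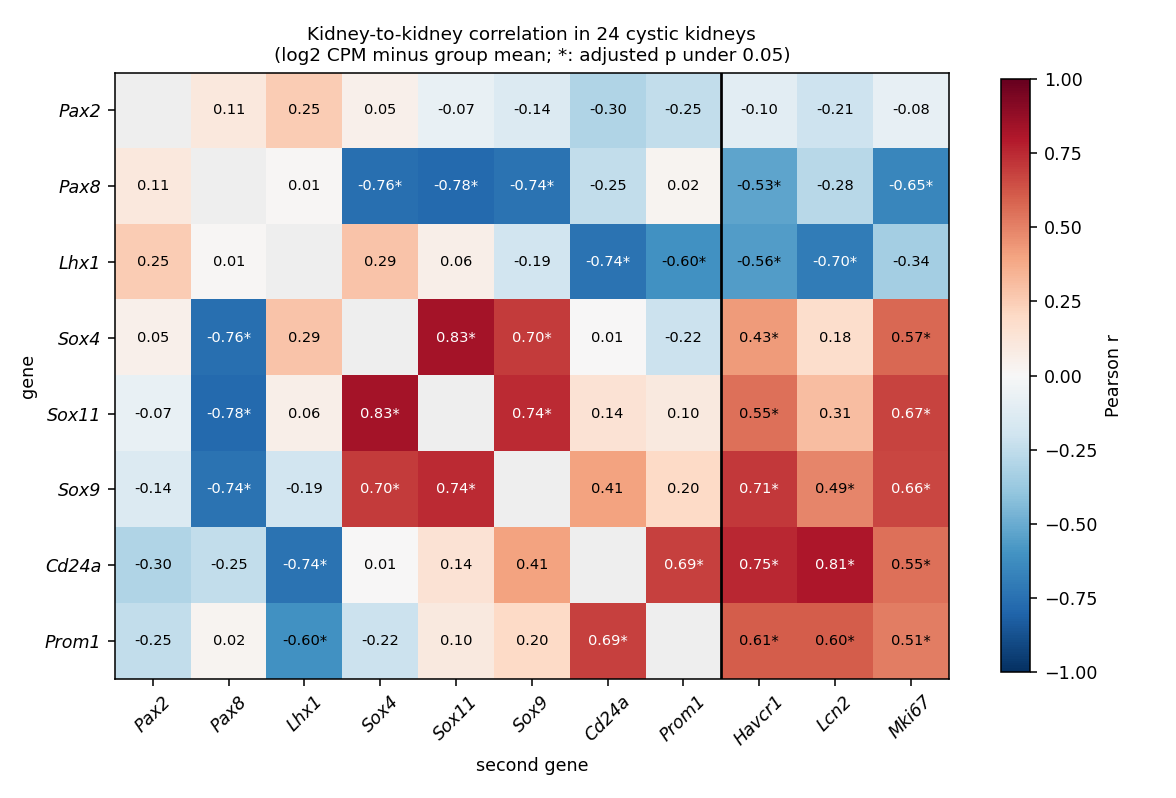
Pearson r between the 8 genes, and between each of them and Havcr1, Lcn2 and Mki67 (right of the line), over 24 cystic kidneys, from log2 CPM minus the group mean. Red is positive and blue negative, and an asterisk marks an adjusted p under 0.05. Sox4, Sox11 and Sox9 form a red block with blue against Pax8, Cd24a and Prom1 are red with each other and blue against Lhx1, and the Pax2 row has no asterisk.

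These relations moved with measures of cell content and of library quality. The summed proximal tubule markers had r = -0.70 with Sox4, -0.79 with Sox9, -0.79 with Sox11 and 0.78 with Pax8 (adjusted permutation p between 0.00016 and 0.000512, over 32 relations). With the marker sum taken out by a linear term, Sox4 and Sox11 kept r = 0.64 (adjusted p = 0.0114), and the other 5 pairs among the SOX genes and Pax8 no longer passed, with r between -0.47 and 0.34. The share of alignments on no feature had r = 0.76 with Lhx1, 0.76 with Sox4 and -0.64 with Prom1. With that share taken out, 8 of the 9 pairs still passed, and Lhx1 with Prom1 had r = -0.24 (adjusted p = 0.295). The summed fibroblast markers had r = 0.70 with Prom1, 0.63 with Cd24a and -0.64 with Lhx1. With them taken out, Lhx1 with Cd24a still passed at r = -0.57 (adjusted p = 0.0194), while Cd24a with Prom1 had r = 0.44 (adjusted p = 0.103) and Lhx1 with Prom1 r = -0.29 (adjusted p = 0.313). Without the kidney that held liver transcripts all 9 pairs passed.

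Against genes of injury and proliferation, the 8 genes again parted by set. Havcr1 encodes KIM-1 and Lcn2 encodes NGAL, both markers of tubule injury, and Mki67 encodes Ki67, a marker of cycling cells. How many of all tested genes vary with these markers was not counted, so the number of relations is not read as particular to the 8 genes. Of the 24 relations 17 passed the permutation test, 13 of them positive, and none involved Pax2. Cd24a, which was not called between PKD and wildtype, had the closest one, r = 0.81 with Lcn2 (permutation p = 2e-05, adjusted p = 0.00048, rho = 0.74, p = 0.00022, r = 0.72 without 2 kidneys), with 0.67 in PKD and 0.89 in PKD + Salsalate kidneys. With Havcr1 it had r = 0.75 (permutation p = 4e-05, adjusted p = 0.00048, rho = 0.70, p = 0.00047, r = 0.64 without 2 kidneys), with 0.60 and 0.84 within the groups.

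Sox9 with Havcr1 had r = 0.71 (permutation p = 0.00031, adjusted p = 0.00186, rho = 0.64, p = 0.00109, r = 0.61 without 2 kidneys), with 0.62 in PKD and 0.74 in PKD + Salsalate kidneys. Lhx1 with Lcn2 had r = -0.70 (permutation p = 0.00019, adjusted p = 0.00152, rho = -0.64, p = 0.00189, r = -0.68 without 2 kidneys), with -0.72 in each group. Prom1 with Havcr1 had r = 0.61 (permutation p = 0.00058, adjusted p = 0.00199, rho = 0.65, p = 0.00084, r = 0.59 without 2 kidneys), with 0.73 and 0.61 within the groups. Sox11 with Mki67 had r = 0.67 (permutation p = 0.00045, adjusted p = 0.00199, rho = 0.73, p = 0.00018, r = 0.75 without 2 kidneys), with 0.45 in PKD and 0.87 in PKD + Salsalate kidneys. Sox9 with Mki67 had r = 0.66 (permutation p = 0.0008, adjusted p = 0.0024, rho = 0.60, p = 0.00318, r = 0.57 without 2 kidneys), with 0.30 in PKD and 0.87 in PKD + Salsalate kidneys. The adjusted p passed 0.05 for 11 of the 17 relations in PKD + Salsalate kidneys alone and for 0 in PKD kidneys alone, and the difference between the groups was not tested.

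With the proximal tubule marker sum taken out, 6 of the 17 relations still passed, and with the fibroblast marker sum taken out 10 did. Cd24a with Lcn2 passed both ways, at r = 0.76 (adjusted p = 0.0012) and r = 0.65 (adjusted p = 0.00546), as did Cd24a with Havcr1, at r = 0.68 (adjusted p = 0.00264) and r = 0.52 (adjusted p = 0.0296). With proximal tubule markers taken out, Sox9 with Havcr1 had r = 0.37 (adjusted p = 0.203), Sox11 with Mki67 r = 0.28 (adjusted p = 0.423) and Sox9 with Mki67 r = 0.26 (adjusted p = 0.426). With fibroblast markers taken out, Prom1 with Havcr1 had r = 0.08 (adjusted p = 0.791) and Lhx1 with Lcn2 r = -0.40 (adjusted p = 0.12).

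**Figure D4:**
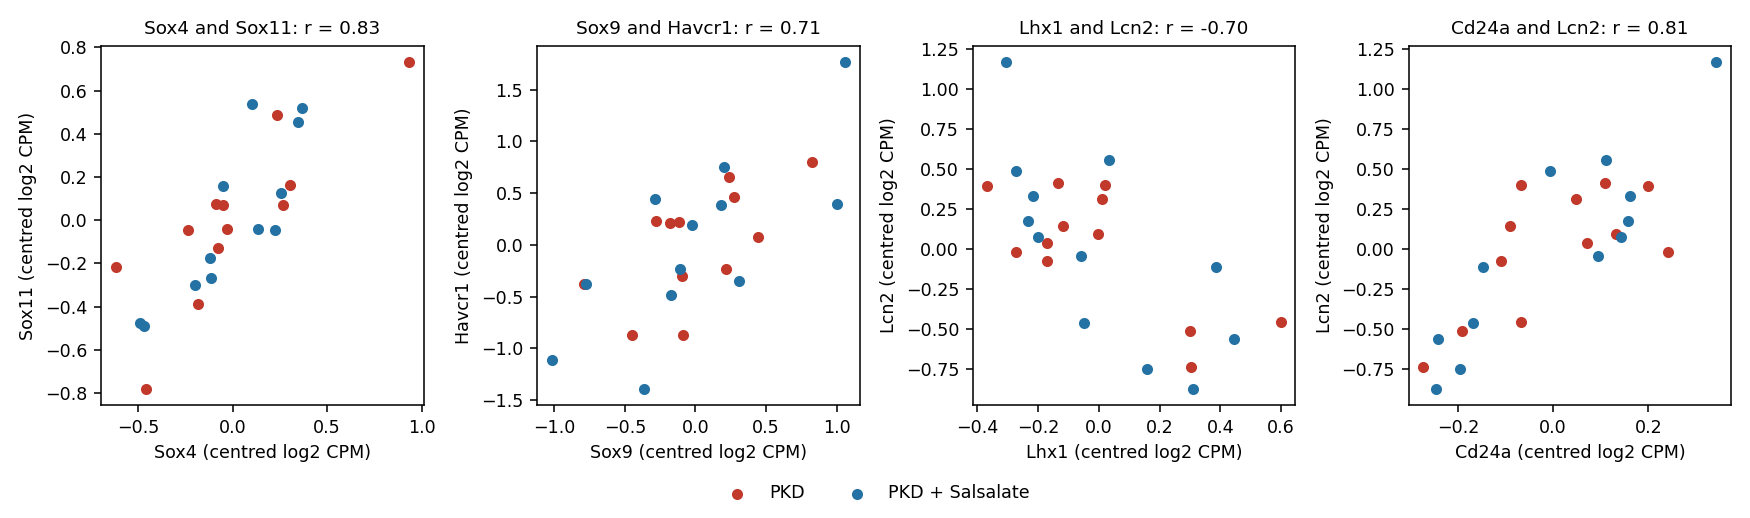
Log2 CPM minus the group mean of 4 pairs of genes in the 24 cystic kidneys, PKD in red and PKD + Salsalate in blue, 1 point per kidney. Sox4 and Sox11 (r = 0.83), Sox9 and Havcr1 (r = 0.71) and Cd24a and Lcn2 (r = 0.81) rise together, and Lhx1 and Lcn2 (r = -0.70) run opposite. The kidney at the upper end of the Lcn2 axis is PKD + Salsalate replicate 11.

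The genes most like each of the 8 over the 24 cystic kidneys, by Pearson r without a test, were of different kinds. Sox4 was closest to Wfdc2, at r = 0.94, and Tmsb10, at r = 0.94. Sox9 was closest to Klf6, which encodes an injury-responsive transcription factor, at r = 0.88, and to Ankrd1, a gene induced by YAP, at r = 0.85. Sox11 was closest to Pmepa1 and Mex3a, both at r = 0.86, and Cd24a to Emp1, at r = 0.96. Prom1 was close to Arb2a (r = 0.89), Lhx1 to Ankrd26 (r = 0.89) and Ppil4 (r = 0.88), and Pax8 to Mapk14 (r = 0.89) and Slc25a5 (r = 0.87). Pax2 had the loosest neighbours, Wnt7b at r = 0.74 and Slco4a1 at r = 0.73. Emp1 rose from 16.2 to 42.6 CPM between wildtype and PKD (adjusted p = 1.83e-08), where Cd24a itself had no call.

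The genes that act beside the 8 in the embryonic kidney gave a divided picture in PKD against wildtype. Of 15 genes of the cap mesenchyme, which holds the nephron progenitors, 7 were too low to test, and Six2 and Cited1, which define that cell population, reached at most 0.130 and 0.454 CPM in any kidney. Among the 8 tested, Crym rose from 21.4 to 31.4 CPM with a log2 fold change of 0.55 (adjusted p = 1.36e-07), Robo2 and Wt1 fell with -0.50 and -0.43, and 5 were not called. Of 6 markers of podocytes and parietal epithelium in the adult kidney, 4 were called lower and 2 higher. Their part in these changes was not tested. Of 20 genes of early nephron patterning, where Lhx1 acts, 16 were tested, and 10 rose and 5 fell, with a median log2 fold change of 0.51. Cdh6, a cadherin of the early proximal tubule, rose from 6.22 to 16.4 CPM with a log2 fold change of 1.41 (adjusted p = 1.59e-10). Ccnd1 and Notch2 rose with log2 fold changes of 0.85 and 0.81. Fgf8, a ligand upstream of Lhx1 in the nephron, reached at most 0.170 CPM.

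Of 15 genes of the ureteric bud, where Pax2 and Sox9 act, 14 were tested, and 2 rose and 5 fell. Calb1 fell from 283.9 to 96.0 CPM with a log2 fold change of -1.56 (adjusted p = 4.86e-12), Tfap2b with -1.09 and Wnt11 with -1.06. Some markers of mature segments fell in the same comparison. Called lower were 5 of 8 for the collecting duct and 3 of 6 for the loop of Henle and distal convoluted tubule. No marker of either was called higher. Of 8 proximal tubule markers 3 were called lower and 1 higher. The collecting duct sum had a median of 628 CPM in the 5 wildtype libraries with a final R, 821 CPM in the other 3 and 660 CPM in PKD kidneys. For the loop and distal tubule these medians were 3538, 5019 and 3823 CPM. List genes were compared with all 8 wildtype kidneys together. The part of mature segments in the falls of Calb1, Tfap2b and Wnt11 was not tested. Ret, the receptor of the bud and a known target of PAX2 in the embryo, reached at most 0.797 CPM.

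Few relatives of the 8 had enough reads to be tested. Among 16 other Sox genes 7 were tested, and 1 was called, Sox18, an endothelial gene, with a log2 fold change of 0.26 (adjusted p = 0.0236). Among 18 other Pax and LIM homeobox genes 3 were tested: Lhx6 rose with a log2 fold change of 1.11, and Pax5 and Lmx1b fell with -0.98 and -0.65, all with group means under 3 CPM. Of 8 cofactors of PAX proteins and LHX1, all tested, 1 rose and 5 fell by small amounts, among them Ldb2 (-0.37) and Tle4 (-0.24) against Rlim (0.25). Of 12 targets that SOX9 is known for in cartilage 10 were too low to test, and Col27a1 fell with a log2 fold change of -0.61 (adjusted p = 0.000473). Of the 2 that were tested none was called higher, and so few cannot show whether targets followed the 5.51-fold rise of Sox9.

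Genes of CD24 and CD133 positive tubule cells rose with Prom1, while Cd24a itself was not called (log2 fold change -0.05, adjusted p = 0.704). A rise of cells that carry both proteins is therefore not shown. Of 8 such markers, 7 rose and 1, Krt7, was not called, with a median log2 fold change of 0.92. Aldh1a1, a retinal dehydrogenase, rose from 7.56 ± 2.69 to 24.1 ± 14.6 CPM, with a log2 fold change of 1.69 (adjusted p = 6.13e-07). S100a6 and Vim rose with 1.02 and 0.99. Vim is also abundant in fibroblasts, whose markers rose in the same kidneys. All 12 genes of injured and repairing tubule rose, led by Havcr1, from 0.887 to 54.5 CPM, Lcn2, from 1.70 to 44.4 CPM, and Krt20, from 0.325 to 8.58 CPM. All 12 cell cycle genes rose too, with Mki67 going from 6.62 to 44.8 CPM (log2 fold change 2.77), Aurkb with 2.47 and Cdk1 with 2.41.

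With salsalate none of the genes in these lists was called against PKD in edgeR's quasi-likelihood test, apart from 5 of the 12 cell cycle genes, which fell. These were Bub1 (log2 fold change -0.72, adjusted p = 0.0154), Top2a (-0.65, adjusted p = 0.0174), Ccnb2 (-0.60, adjusted p = 0.0474), Cdk1 (-0.54, adjusted p = 0.0468) and Mcm2 (-0.39, adjusted p = 0.0222). At an unadjusted p under 0.05 there were 4 of 16 tested genes in the early nephron list, 3 of 14 in the ureteric bud list, 2 of 8 in the CD24 and CD133 list, 3 of 12 in the injury list and 2 of 2 in the cartilage list, beside 10.3% of all genes. The other lists but that of the cell cycle, where it was 12 of 12, had 0. The lists were chosen with earlier results of these data known, so these counts are a description and no independent support. Sox9, with -0.60 in the same comparison, did not pass the test, and a link to the fall of the cell cycle genes under salsalate was not tested.

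**Figure D5:**
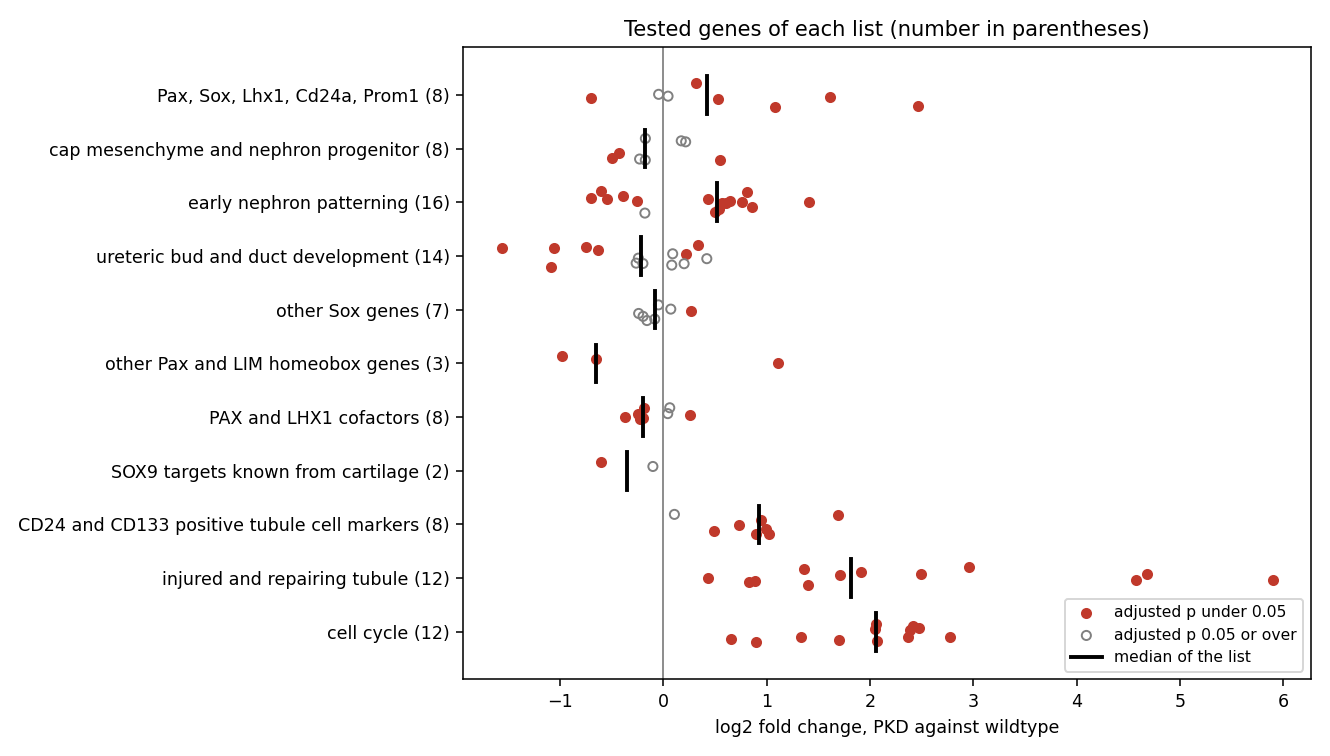
Log2 fold change between PKD and wildtype of the tested genes of each list (horizontal axis), with the 8 genes of this report in the top row. Filled points have an adjusted p under 0.05, open points do not, and black bars are medians. The medians of the injury list (1.81) and of the cell cycle list (2.06) lie farthest to the right, and the developmental lists spread to both sides of 0.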

How the data were processed

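The authors made the deposited raw counts with HTSeq 0.12.4, by strand, from poly(A) reads of a directional kit trimmed with cutadapt 2.10 and aligned with STAR 2.7.5a to GRCm39. All values are whole numbers. For each kidney the table adds 5 lines that sum up alignments outside any gene count, which entered neither library sizes nor tests, and genes took 73.6% to 83.1% of the alignments. Groups came from the sample labels.

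R 4.3.3 and edgeR 4.0.16 served for the tests. A gene was kept when its log2 CPM exceeded 1 in 25% or more of the kidneys. After TMM normalization 1 model without covariates held all 3 groups. Quasi-likelihood tests were 2-sided, with Benjamini-Hochberg adjustment over 13961 genes at a threshold of 0.05. The fit was tested on simulated counts. DESeq2 1.42.0, limma 3.58.1, other filters and scalings, a replicate block, either wildtype set and leaving out each kidney were alternatives. P-values of the fits set the difference between groups against the spread between mice within groups. In wildtype this spread includes the gap between the sets of libraries. Correlations used log2 CPM with a prior count of 2 and 100000 permutations within groups (smallest possible p 1e-05), adjusted within each family. Linear terms for marker sums and for alignments on no feature, and leaving out PKD replicate 10 from the correlations, were added after seeing the data.

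Positions, overlaps and exon lengths came from GENCODE annotation of GRCm39, in which 52610 of 53700 gene identifiers were found. Near-identical copies were searched with BLAST 2.17.0 at 95% identity or more over at least 100 bases. Promoters came from the RefSeq table of GRCm38.p6, and their positions from exact matches in GRCm39. The genes named are the 8, in each list up to 3 with the largest called change between PKD and wildtype and all called between PKD + Salsalate and PKD, the 2 most alike to each of the 8 (for Cd24a and Prom1, 1 of them is not reported here), Havcr1, Lcn2, Mki67, Pkd1 and overlapping genes. Six2, Cited1, Fgf8, Ret and Krt7 fall outside these rules and were named after their values were seen. The 8 genes and the lists were chosen with earlier results of these data known.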

Additional observations from a re-analysis of the deposited data

How the results depend on the processing

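Of the 8 genes, the number called between PKD and wildtype stayed within 1.5 times the main count under every alternative run. Which genes were called changed with the wildtype set. Against the 5 libraries with a final R, Pax8 gained a call and Sox4 lost its call in edgeR's test (adjusted p = 0.0312 and 0.294). Against the other 3, Pax2 lost its call (adjusted p = 0.752). The number called between PKD + Salsalate and PKD was 1 with limma-voom and from 0 to 1 when a kidney was left out, against 0. The count over all genes in that comparison, 81, was less stable: 199 with DESeq2, 146 with limma-voom, 48 with a replicate block, 145 and 257 with only the 5 or only the 3 wildtype libraries, 195 with only the 2 groups compared, and 39 to 226 with a kidney left out, the highest without PKD + Salsalate replicate 11 and from 39 to 53 without PKD replicates 1, 9 or 11 or PKD + Salsalate replicates 1, 5, 6 or 12. The cause was not tested. The log2 fold change against wildtype changed sign with only the 3 wildtype libraries for Pax2 in PKD (-0.049), for Pax8 (-0.22 in PKD, -0.16 in PKD + Salsalate) and for Cd24a (0.23 in PKD, 0.16 in PKD + Salsalate). It also did so in PKD when a kidney was left out, with ranges of -0.0015 to 0.12 for Pax8 and -0.092 to 0.045 for Cd24a, in both cases without wildtype replicate 1. Per kilobase of the longest transcript in place of all exons, Pax2, Pax8, Cd24a and Prom1 moved to 11.7, 19.9, 62.5 and 17.1 CPM in the mean over all kidneys. With proximal tubule markers taken out, r changed sign for Pax8 with Havcr1 (0.0068) and Sox4 with Havcr1 (-0.11), and with fibroblast markers taken out for Prom1 with Mki67 (-0.046). Same-numbered PKD and PKD + Salsalate kidneys correlated between -0.40 and 0.41 in their deviations from the group means, over 0.1 in 2 of 12 pairs, so the numbers do not pair the mice, and the block changed no call of the 8 genes. Sox9 and Sox11 rest on 7 to 22 reads per wildtype kidney, which limits their fold changes.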
